A study of Homo sapiens with 8 samples.

Results

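The genes described here encode the proteasome: its subunits, its activators and inhibitor, and the chaperones that assemble it. They were taken from the deposited table as the rows whose symbol begins with PSM, followed by a letter from A to G and a number. The table had 63677 rows, of which 62 matched, under 48 symbols. A row was kept where at least 4 of the 8 libraries had a value of at least 10 normalized reads, and 46 of the 62 rows passed, each with its own symbol. Of the 16 rows that did not pass, 7 carried the symbol PSMB8 and 7 the symbol PSMB9 under further Ensembl identifiers, and all 14 were at 0 in every library. The other rows were PSMA8, a subunit of the testis, with 0 reads, and PSMB11, a subunit of the thymus, with 2 reads in all libraries together. No kept gene lay near the filter, since the lowest value of any of them was 470.1 normalized reads, for PSMB9 in an shSRC1 library. The same filter left 19559 genes of the whole table for testing.

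The cells were LY2, which were derived from MCF-7 breast cancer cells and resist endocrine therapy. In 4 libraries they stably carried a short hairpin RNA against NCOA1 (shSRC1), the gene of the nuclear receptor coactivator SRC-1, and in 4 libraries a non-targeting hairpin (shNT). Cells of both groups were cultured with 10 nM 4-hydroxytamoxifen (4-OHT, the active metabolite of tamoxifen) and 500 ng/mL puromycin, went without steroids for 72 h, and were then given 100 nM 4-OHT for 8 h before polyadenylated RNA was sequenced. There was no group without 4-OHT, and the labels do not say whether a hairpin line is a clone or a pool or whether replicates were grown apart. The p-values therefore speak of the variation among these libraries alone, and part of that variation may be technical.

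The proteasome degrades proteins that carry a ubiquitin chain. Its core particle is a barrel of stacked alpha and beta rings, with the proteolytic sites of PSMB5, PSMB6 and PSMB7 on the inner face of the beta rings. A regulatory particle, made of a base with a ring of ATPases and a lid with a deubiquitinase, caps the barrel, binds the ubiquitin chain, unfolds the substrate and feeds it in. Interferon-gamma is known to induce PSMB8, PSMB9 and PSMB10, which replace PSMB5, PSMB6 and PSMB7 in newly built cores to form the immunoproteasome, known for producing peptides for display on MHC class I. In many cells the constitutive genes are induced together by the transcription factor NRF1 (gene NFE2L1) when proteasome activity is short.

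The target of the hairpin was lower in every shSRC1 library. NCOA1 (ENSG00000084676) averaged 2036 ± 151 normalized reads in shSRC1 and 4396 ± 137 in shNT (SD, n = 4 each), and its log2 fold change was -1.11 (SE 0.08, limma adjusted p = 2.25e-07). The shSRC1 libraries held 65352354, 33771775, 65321247 and 66248960 reads assigned to genes in replicates 1 to 4, and the shNT libraries 58459196 to 67022036. Replicate 3 of shNT stood apart from the other libraries for the proteasome genes: it was the lowest of the 8 libraries for 34 of the 46, and its value was a median of 0.786 times the mean of the other shNT libraries (range 0.652 to 1.04). In the same library the median deviation from the gene's mean over 8 libraries was -0.35 on the log2(value + 1) scale for the proteasome genes and -0.68 for 12 ribosomal protein genes, while the median over all tested genes was -0.03. Across 18788 genes, deviations from the gene mean went with the GC content of the transcript to different degrees in different libraries, from a Spearman's rho of -0.23 in shNT replicate 3 to 0.49 in shSRC1 replicate 1, where the genes of a library share its depth and preparation. For many of the counts and genes named, the value without shNT replicate 3 is given as well. The 9 luminal breast markers summed to 604970 to 669932 normalized reads in shSRC1 and 373185 to 497028 in shNT. Of these markers KRT8, KRT18, KRT19 and XBP1 rose and none fell, with ESR1, the estrogen receptor gene, at 18728 ± 946 in shSRC1 and 20472 ± 349 in shNT. Markers of leukocytes summed to 127 to 180 normalized reads in shSRC1 and 227 to 281 in shNT, mostly from ITGB2, which fell, with MS4A1 at 0 and CD3E at 2 reads in all libraries. Markers of fibroblasts summed to 1452 to 1978 in shSRC1 and 1636 to 2187 in shNT, and of the 5 that could be tested none passed. The part of these markers in the proteasome values was not tested.

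**Figure D1:**
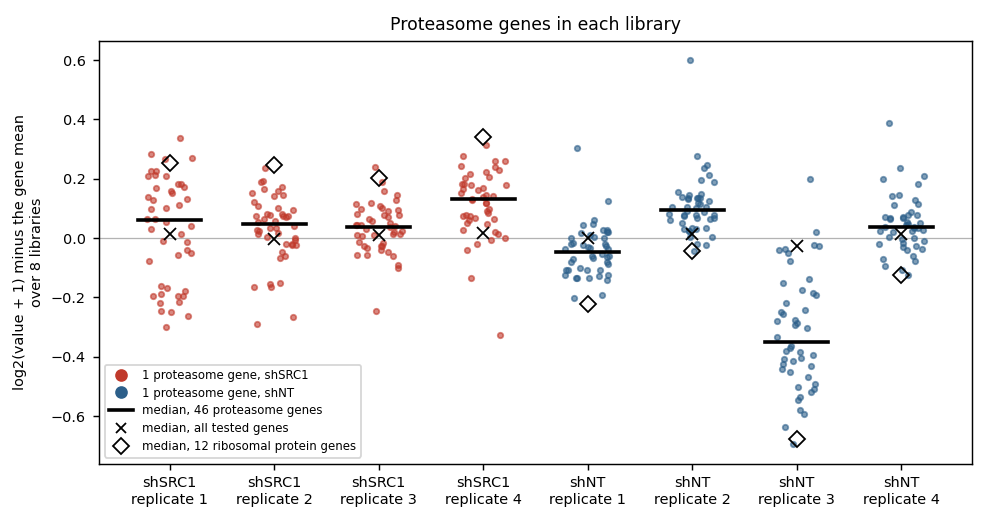
Each point is 1 of the 46 proteasome genes in 1 library, as log2(value + 1) minus the mean of that gene over all 8 libraries, for the 4 shSRC1 and the 4 shNT libraries. Bars, crosses and diamonds are the medians of the proteasome genes, of all tested genes and of 12 ribosomal protein genes. The bar of shNT replicate 3 lies at -0.35 and that of every other library between -0.05 and 0.13.

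Of the 46 proteasome genes, 5 rose and 2 fell in shSRC1, and 39 did not pass the test. The 5 that rose were PSMB6, PSMD10, PSMA6, PSMB5 and PSMC4, by log2 fold changes of 0.32 to 0.50. The 2 that fell were the immunoproteasome subunit PSMB9, by 0.57 on the log2 scale, and the activator PSME4, by 0.32. The 7 genes are 15.2% of the proteasome genes, while 23.2% of all tested genes passed, 12% higher and 11.2% lower (limma on log2(value + 1), Benjamini-Hochberg adjusted p under 0.05 over 19559 genes). In 10 of the 46 every shSRC1 library was above every shNT library, and in 2 every one was below. These 12 genes are to be read against the 29% of all tested genes whose groups did not overlap, 16.9% higher and 12.1% lower in shSRC1.

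The fold changes of the 46 genes were small and mostly above 0. Their median was 0.12 on the log2 scale, with 34 of 46 above 0, against a median of 0.00 and 49.8% above 0 over all tested genes. Without shNT replicate 3 the median of the proteasome genes was 0.04, and 9 of the 46 passed, 6 higher and 3 lower (21.3% of all genes). In 10 genes the shSRC1 libraries then lay above and in 4 below the other shNT libraries, where 32.8% of all genes did not overlap, 18% higher and 14.9% lower. The count of 7 was 3 without shSRC1 replicate 2 (16.2% of all genes), 4 without shSRC1 replicate 4 (18.1%), 14 without shNT replicate 2 (24.6%) and 11 with upper-quartile scaling (24.8%). Summed over the 46 genes, the shSRC1 libraries had 477682, 477033, 477017 and 508425 normalized reads, and the shNT libraries had 446543, 494553, 372480 and 476606. The sums overlapped, with shNT replicate 2 above 3 of the shSRC1 libraries and shNT replicate 3 lowest. Fewer cells that express a gene and less of its RNA per cell cannot be told apart in these bulk libraries.

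**Figure D2:**
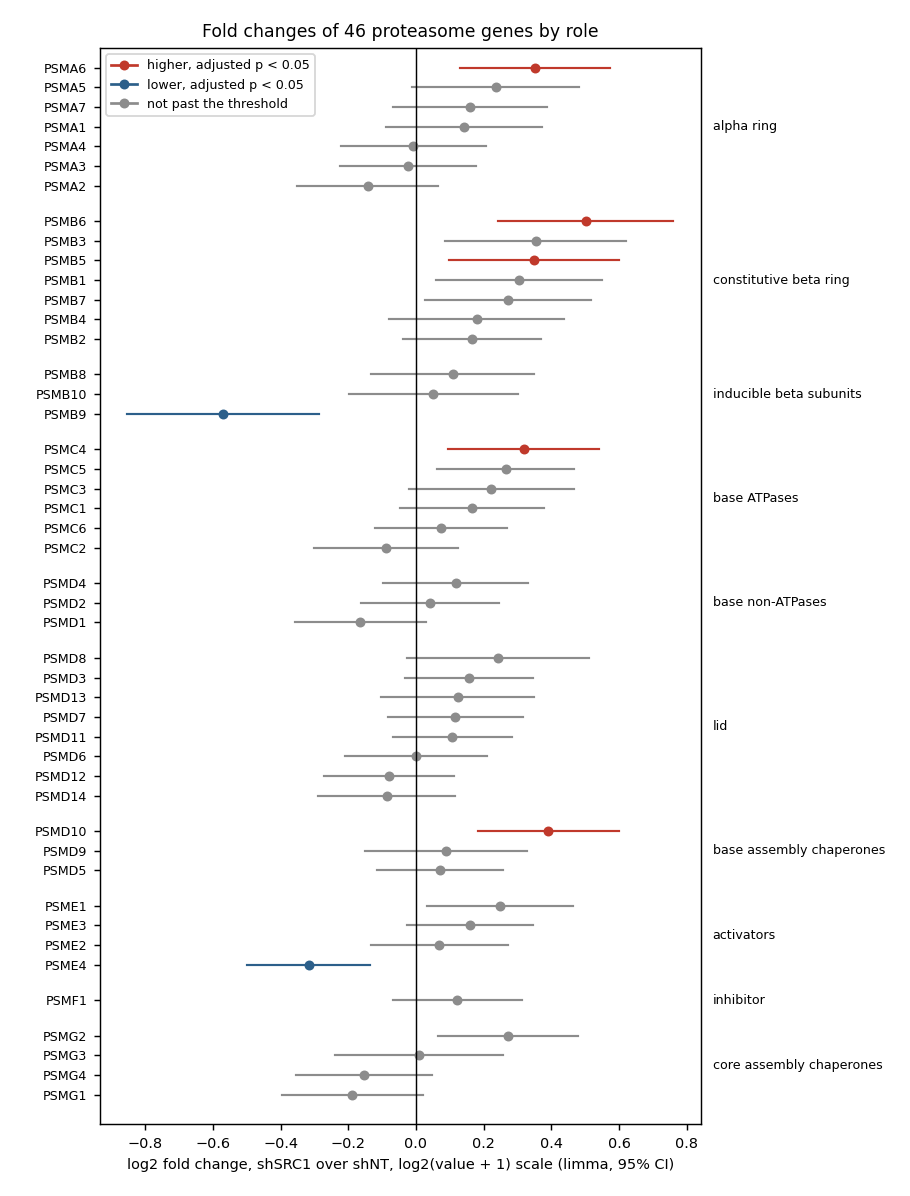
Log2 fold change of each of the 46 genes, shSRC1 over shNT, on the log2(value + 1) scale with its 95% confidence interval from limma (4 libraries a group), arranged by role. The 5 genes in red rose and the 2 in blue fell at an adjusted p under 0.05. All 7 constitutive beta ring genes lie above 0, while PSMB9 among the inducible subunits lies at -0.57.

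In the alpha ring, whose subunits gate the entrance of the core, 1 of 7 genes rose and none fell. Of all tested genes 12% rose and 11.2% fell. PSMA6 (chromosome 14) had 3441, 3492, 3480 and 3809 normalized reads in shSRC1 and 2862, 3217, 2211 and 2946 in shNT. The groups did not overlap, and shNT replicate 3 was the lowest library. Its log2 fold change was 0.35 (SE 0.10, limma adjusted p = 0.0252). PSMA6 no longer passed without shSRC1 replicate 4, its highest library (limma adjusted p = 0.0713), or without the shallow shSRC1 replicate 2 (limma adjusted p = 0.0502). With shNT replicate 3 left out it passed, at 0.24. Exons of another gene cover 14.1% of the exon bases of PSMA6, so its value is uncertain where reads could be shared. The log2 fold changes of the other alpha ring genes ran from -0.14 for PSMA2 to 0.24 for PSMA5, and none passed.

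The constitutive beta ring, which holds the proteolytic sites, had the highest median fold change of the roles. Of its 7 genes 2 rose and none fell, where 12% of all tested genes rose. All 7 fold changes were above 0, with a median of 0.30 on the log2 scale (0.17 without shNT replicate 3), and 5 of the 7 had shSRC1 libraries wholly above shNT, against 16.9% of all tested genes. PSMB6, the subunit with caspase-like activity, had 10306, 9624, 9313 and 9634 normalized reads in shSRC1 and 7149, 7910, 5039 and 7763 in shNT. The groups were well apart, the closest libraries being 9313 in shSRC1 and 7910 in shNT. PSMB6 averaged 9719 ± 418 in shSRC1 and 6965 ± 1326 in shNT (SD, n = 4 each), and rose by 0.50 on the log2 scale (SE 0.12, limma adjusted p = 0.0093). It passed in all 20 alternative settings, with log2 fold changes from 0.35, with shNT replicate 3 left out, to 0.57.

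PSMB5, which carries the chymotrypsin-like site that bortezomib blocks, had 16251, 15989, 15160 and 15908 normalized reads in shSRC1 and 12762, 14608, 9283 and 13720 in shNT. The groups did not overlap, and shNT replicate 3 was again the lowest library. The PSMB5 difference was 0.35 on the log2 scale (SE 0.12, limma adjusted p = 0.0442). It was 0.21 without shNT replicate 3, where it passed, and 0.26 with a correction for transcript length and GC content, where it did not. With any of the 4 shSRC1 libraries or shNT replicate 1 left out PSMB5 did not pass either. PSMB7, with the trypsin-like site, had 9716, 9287, 9230 and 9812 in shSRC1 and 7931, 9140, 5970 and 8888 in shNT. These groups did not overlap either, but the closest libraries were 9230 in shSRC1 and 9140 in shNT, and the log2 fold change of PSMB7 was 0.27 (SE 0.11), which missed the threshold (limma adjusted p = 0.0977). Leaving out shNT replicate 3 gave 0.14, and leaving out shNT replicate 2 gave 0.34, where PSMB7 passed (limma adjusted p = 0.0426).

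The 4 structural beta subunits did not pass. PSMB3 and PSMB1 came closest, with log2 fold changes of 0.35 (limma adjusted p = 0.0547) and 0.30 (limma adjusted p = 0.0681), and both had groups that did not overlap. In 6 of 20 alternatives PSMB3 passed, and in 3 PSMB1. Their values were 0.20 and 0.17 without shNT replicate 3. PSMB4 had a log2 fold change of 0.18 and PSMB2 of 0.17.

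**Figure D3:**
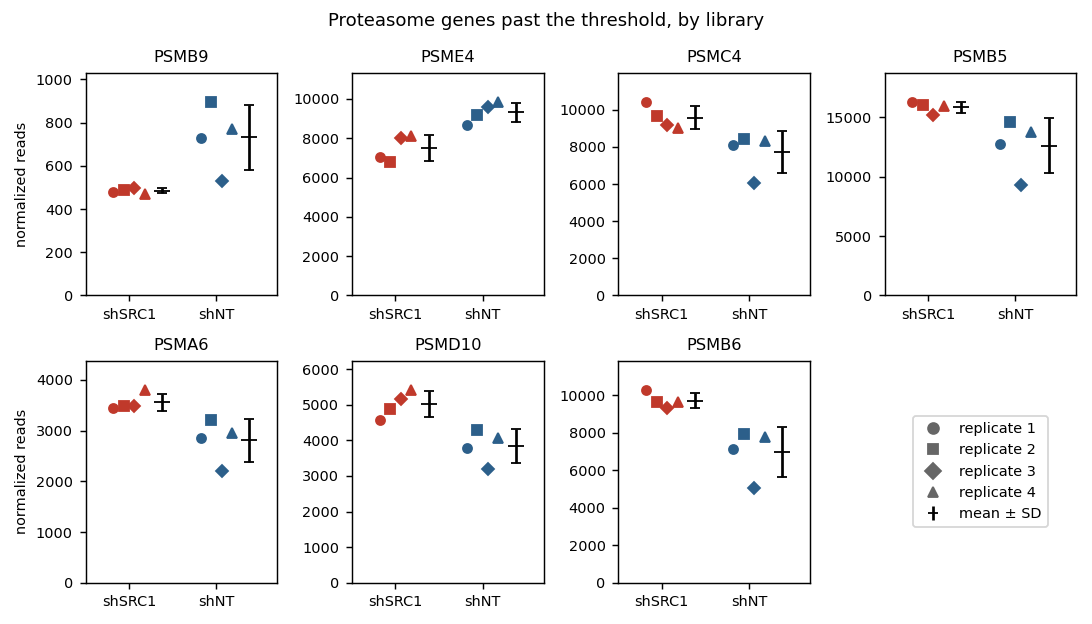
Normalized reads in each of the 4 shSRC1 and 4 shNT libraries for the 7 proteasome genes past the threshold, with mean and SD beside the points and a symbol for each replicate number. The groups of all 7 genes are separate. The shNT replicate 3, drawn as a diamond, is the lowest shNT library in every panel other than PSME4.

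Of the 3 immunoproteasome subunits, 1 fell and 2 did not pass, where 11.2% of all tested genes fell. PSMB9 (ENSG00000240065, chromosome 6), the inducible counterpart of PSMB6, had 479, 490, 497 and 470 normalized reads in shSRC1, against 728, 895, 531 and 771 in shNT. The shSRC1 libraries lay close together and below every shNT library, of which replicate 3 was the closest to them. PSMB9 averaged 484 ± 12 in shSRC1 and 731 ± 151 in shNT (SD, n = 4 each), a difference of -33.8%. On the log2 scale the change was -0.57 (SE 0.13, limma adjusted p = 0.0075), with a 95% confidence interval of -0.85 to -0.29. PSMB9 passed in all 20 alternatives, with log2 fold changes of -0.72 to -0.46.

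PSMB8, the counterpart of PSMB5, had 1821, 1860, 1821 and 1858 normalized reads in shSRC1 and 1645, 2089, 1339 and 1842 in shNT. The shSRC1 libraries lay inside the range of shNT, and PSMB8 did not pass, at 0.11 on the log2 scale (SE 0.11, limma adjusted p = 0.503). PSMB10, the counterpart of PSMB7, had 931, 689, 759 and 787 in shSRC1 and 783, 848, 626 and 801 in shNT. These groups overlapped as well, and PSMB10 stood at 0.05 on the log2 scale (SE 0.12, limma adjusted p = 0.778). Without shNT replicate 3 the values of PSMB8 and PSMB10 were -0.0077 and -0.042. Annotated exons of other genes cover 20.6% of the exon bases of PSMB8 and 34.8% of those of PSMB10, so their values are uncertain where reads could be shared. For PSMB9 the share was 5.66%.

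Set against its constitutive counterpart within each library, which removes the scaling between libraries, 2 of the 3 inducible subunits had a lower ratio in shSRC1. The ratio of PSMB9 to PSMB6 was 0.0465, 0.0509, 0.0534 and 0.0488 in shSRC1, against 0.102, 0.113, 0.105 and 0.0994 in shNT. The groups were far apart, and shNT replicate 3 lay among the other shNT libraries. The difference was -1.07 on the log2 scale (exact two-sided permutation test p = 0.0286, the smallest that 4 against 4 libraries allow, 0.0429 adjusted over the 3 ratios). PSMB9 and PSMB6 passed in opposite directions, so both subunits enter this ratio. The ratio of PSMB8 to PSMB5 was 0.112, 0.116, 0.120 and 0.117 in shSRC1 and 0.129, 0.143, 0.144 and 0.134 in shNT. These groups were also separate, with a difference of -0.24 (exact permutation p = 0.0286, adjusted 0.0429), although PSMB8 itself did not pass. The ratio of PSMB10 to PSMB7 was 0.0959, 0.0742, 0.0822 and 0.0802 in shSRC1 and 0.0987, 0.0927, 0.105 and 0.0901 in shNT, which overlapped (difference -0.22, exact permutation p = 0.0857, adjusted 0.0857).

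**Figure D4:**
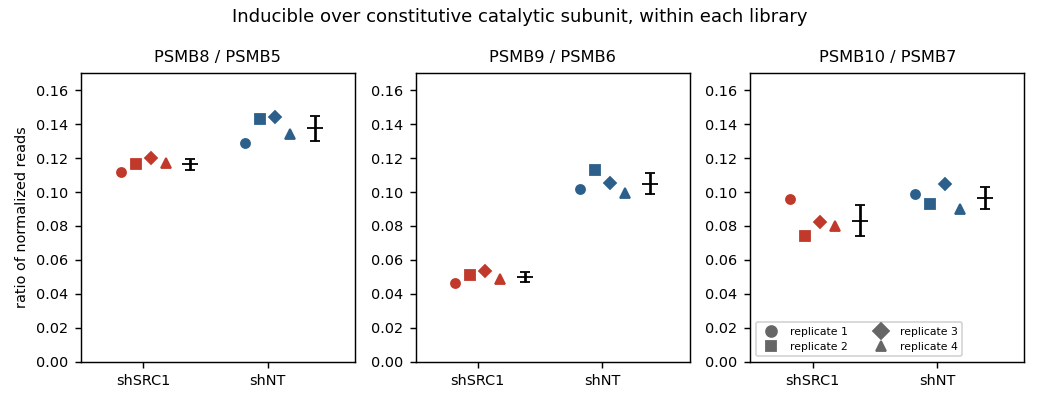
Ratio of the normalized reads of each inducible catalytic subunit to those of its constitutive counterpart in each of the 4 shSRC1 and 4 shNT libraries, with mean and SD. For PSMB9 over PSMB6 the shSRC1 libraries lie at 0.0465 to 0.0534 and the shNT libraries at 0.0994 to 0.113. The groups of PSMB8 over PSMB5 are separate as well, and those of PSMB10 over PSMB7 overlap.

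The sequences before the transcription starts of the inducible subunits, of PSMB5 and of PSME4 are shown because PSMB9 fell while its neighbour PSMB8 and the related PSMB10 did not pass, and because PSMB5 and PSME4 moved in opposite directions. RefSeq (GRCh38.p14) gave windows of 250 bases before a start for 40 of the 46 genes, 49 windows in all. No window was read for PSMA7, PSMB1, PSMB6, PSMB7, PSMD4 and PSMG3. Capitals mark matches, on either strand, to the motifs named after the sequences, and each window is written on the strand of its gene.
PSMB9, chr6:32853942-32854191, plus strand: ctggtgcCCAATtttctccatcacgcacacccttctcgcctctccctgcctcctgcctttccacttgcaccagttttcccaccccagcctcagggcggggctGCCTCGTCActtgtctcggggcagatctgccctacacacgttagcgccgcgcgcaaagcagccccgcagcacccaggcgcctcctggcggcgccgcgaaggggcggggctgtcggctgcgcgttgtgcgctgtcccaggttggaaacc
PSMB8, chr6:32844680-32844929, minus strand: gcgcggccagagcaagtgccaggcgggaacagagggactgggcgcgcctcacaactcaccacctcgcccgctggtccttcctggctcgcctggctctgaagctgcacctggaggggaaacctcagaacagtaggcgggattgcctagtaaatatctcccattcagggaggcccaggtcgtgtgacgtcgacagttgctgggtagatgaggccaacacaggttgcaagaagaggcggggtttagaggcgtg
PSMB10, chr16:67936851-67937100, minus strand: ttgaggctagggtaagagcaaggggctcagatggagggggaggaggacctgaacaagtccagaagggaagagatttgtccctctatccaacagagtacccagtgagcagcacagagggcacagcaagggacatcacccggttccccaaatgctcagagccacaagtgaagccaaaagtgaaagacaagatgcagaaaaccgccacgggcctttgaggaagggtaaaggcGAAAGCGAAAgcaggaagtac
PSMB5, chr14:23035221-23035470, minus strand: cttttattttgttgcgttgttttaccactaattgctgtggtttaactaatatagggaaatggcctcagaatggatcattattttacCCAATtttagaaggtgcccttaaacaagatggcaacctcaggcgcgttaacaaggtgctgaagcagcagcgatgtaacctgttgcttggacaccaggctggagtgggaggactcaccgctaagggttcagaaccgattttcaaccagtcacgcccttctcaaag
PSME4, chr2:53970994-53971243, minus strand: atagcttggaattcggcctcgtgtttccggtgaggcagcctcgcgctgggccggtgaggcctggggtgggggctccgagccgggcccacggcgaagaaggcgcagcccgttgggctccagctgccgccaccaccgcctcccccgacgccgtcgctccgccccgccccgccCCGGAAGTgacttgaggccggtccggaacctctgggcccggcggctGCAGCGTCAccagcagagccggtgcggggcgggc

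The letters searched were those of the CCAAT box (CCAAT), bound by NF-Y, of the core of the antioxidant response element (TGACNNNGC), bound by factors of the NRF1 and NRF2 family, and of the core of the interferon-stimulated response element (GAAA repeated after a gap of 2 bases). They were also those of the gamma-activated site (TTCNNNGAA), of the cyclic AMP response element (TGACGTCA) and of an ETS site (CCGGAAGT). The window of PSMB9 holds a CCAAT box 243 to 239 bases before the start and, on the other strand, an antioxidant core 148 to 140 bases before it. That of PSMB10 holds the interferon-stimulated core 21 to 12 bases before the start. The PSMB5 window holds a CCAAT box, that of PSME4 an ETS site and, on the other strand, an antioxidant core, and the printed PSMB8 window none of the 6 motifs. Windows before other starts of PSMB8 and PSMB5, not printed, hold the gamma-activated site. A match describes the letters only.

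Over the 49 windows of proteasome genes, the antioxidant core was found in 26.5%, against 10.9% of all 35116 windows. The interferon-stimulated core was found in 10.2%, against 3.02%, and the CCAAT box in 36.7%, against 32.0%. The gamma-activated site was in 12.2% (6.57% of all windows), the ETS site in 10.2% (3.42%) and the cyclic AMP element in 0.0% (1.65%). Of the 7 genes that passed the test 6 have a window, and among these 6 PSMB9 and PSME4 hold the antioxidant core and none holds the interferon-stimulated core. This was seen after the calls were known and was not tested.

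The start of PSMB9 lies 488 bases from that of TAP1, a peptide transporter gene on the opposite strand. TAP1 averaged 4470 ± 271 normalized reads in shSRC1 and 4861 ± 569 in shNT, and its log2 fold change of -0.12 did not pass (limma adjusted p = 0.385). It was -0.20 without shNT replicate 3 and then passed (limma adjusted p = 0.0488). TAP2, the other chain of the transporter, had a log2 fold change of -0.15 (limma adjusted p = 0.216). Among the 100 nearest tested protein-coding genes around PSMB9 the median log2 fold change was 0.06. Around PSMB6, on chromosome 17, it was 0.30, with 53 of the 100 neighbours higher and 2 lower in shSRC1, while 12% of all tested genes were higher. Their part in the rise of PSMB6 was not tested. Around the other genes that passed, the medians ran from -0.08 for PSME4 to 0.09 for PSMC4.

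In the regulatory particle, 1 of 17 genes rose and none fell (5.88%), where 12% of all tested genes rose and 11.2% fell. PSMC4, an ATPase of the base (chromosome 19), had 10413, 9650, 9188 and 9027 normalized reads in shSRC1, against 8087, 8436, 6082 and 8325 in shNT. The groups did not overlap, with the 2 closest libraries at 9027 in shSRC1 and 8436 in shNT. Its log2 fold change was 0.32 (SE 0.10, limma adjusted p = 0.0399). Without shNT replicate 3 it was 0.21, where PSMC4 passed, but PSMC4 did not pass when any of the 4 shSRC1 libraries or shNT replicate 1 was left out.

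The other ATPases, which unfold and translocate the substrate, had log2 fold changes of -0.09 for PSMC2 to 0.26 for PSMC5. PSMC5 had 23198, 22625, 22420 and 22960 in shSRC1 and 19312, 21284, 15821 and 19955 in shNT, without overlap, and missed the threshold (limma adjusted p = 0.0552). It passed, at 0.18, without shNT replicate 3. Exons of other genes cover 19.5% of the exon bases of PSMC5 and 75.8% of those of PSMC1, so the values of both are uncertain. Among the scaffold and ubiquitin-binding subunits of the base, PSMD1, PSMD2 and PSMD4 had log2 fold changes of -0.16, 0.04 and 0.12.

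None of the 8 lid genes passed. Their log2 fold changes ran from -0.09 for PSMD14, the deubiquitinase that removes the ubiquitin chain, to 0.24 for PSMD8, with a median of 0.11. PSMD3, a scaffold subunit of the lid, was the only lid gene whose groups did not overlap (log2 fold change 0.16, limma adjusted p = 0.211). Among the lid genes PSMD6 had the smallest difference between group means, with 48050 ± 4507 normalized reads in shSRC1 and 48082 ± 4368 in shNT (SD, n = 4 each). Its 95% confidence interval ran from -0.21 to 0.21 on the log2 scale, so a change of that size in either direction could not be told from none.

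Of the 3 chaperones that assemble the base, 1 rose, where 12% of all tested genes did. PSMD10, also known as gankyrin (chromosome X), had 4565, 4892, 5153 and 5425 normalized reads in shSRC1 and 3797, 4296, 3193 and 4050 in shNT. The groups did not overlap, and the closest libraries were 4565 in shSRC1 and 4296 in shNT. PSMD10 rose by 0.39 on the log2 scale (SE 0.10, limma adjusted p = 0.0105), and it passed in all 20 alternatives, with log2 fold changes of 0.31 to 0.45. The chaperones PSMD5 and PSMD9 had log2 fold changes of 0.07 and 0.09.

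The 4 chaperones that assemble the alpha ring had values in both directions, and none passed. PSMG1 and PSMG2 act as a heterodimer. PSMG2 had a log2 fold change of 0.27 (limma adjusted p = 0.054), with 3589 to 4160 normalized reads in shSRC1 and 2779 to 3790 in shNT. PSMG1 had one of -0.19 (limma adjusted p = 0.17), with 1972 to 2381 in shSRC1 and 2053 to 2736 in shNT. The groups of both genes overlapped. PSMG1 passed at -0.27 without shNT replicate 3, and its groups no longer overlapped. PSMG3 and PSMG4 had log2 fold changes of 0.01 and -0.15.

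Among the activators, which open the core without the regulatory particle, 1 of 4 fell, where 11.2% of all tested genes did. PSME4, a large single-chain activator (chromosome 2), had 7027, 6814, 8020 and 8099 normalized reads in shSRC1, against 8688, 9172, 9575 and 9830 in shNT. The groups did not overlap, and here shNT replicate 3 was among the high libraries. Its log2 fold change was -0.32 (SE 0.08, limma adjusted p = 0.0154), and it passed in 18 of 20 alternatives, not without shSRC1 replicate 2 (limma adjusted p = 0.063) or shNT replicate 4.

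The other activators did not pass. PSME1 and PSME2 form a ring that interferon-gamma induces along with the immunoproteasome. PSME1 had 14253, 13541, 13084 and 13952 in shSRC1 and 11524, 13151, 9315 and 12533 in shNT, where 13084 in shSRC1 lay just below 13151 in shNT (log2 fold change 0.25, limma adjusted p = 0.0885). PSME2 had 11398, 11153, 11398 and 12383 in shSRC1 and 10880, 12397, 9262 and 11861 in shNT, with full overlap (log2 fold change 0.07, limma adjusted p = 0.621). PSME3, the nuclear activator, had 17702, 16815, 16186 and 16627 in shSRC1 and 15555, 16200, 12992 and 15744 in shNT, where 16186 in shSRC1 lay just below 16200 in shNT (log2 fold change 0.16, limma adjusted p = 0.197). PSMF1, an inhibitor of the core, had 6975, 6013, 5764 and 6170 in shSRC1 and 6148, 6090, 5031 and 5642 in shNT. Its groups overlapped (log2 fold change 0.12, limma adjusted p = 0.334). Leaving out shNT replicate 3 gave 0.15 for PSME1, 0.09 for PSME3 and 0.06 for PSMF1. PSME1 passed without shNT replicate 2 (limma adjusted p = 0.0414).

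Levels differed far more between proteasome genes than between the groups. Per kb of transcript, the mean level ran from 124 normalized reads in shSRC1 and 138 in shNT for the chaperone PSMG4 to 32141 in shSRC1 and 32162 in shNT for PSMD6. The length was that of the longest annotated transcript, 4603 bases for PSMG4 and 792 for PSMB9, and the order depends on that choice. Before the division PSMG4 averaged 569 in shSRC1 and 633 in shNT, and PSMB9 484 and 731. The inducible subunits lay well below their constitutive counterparts on this scale. PSMB9 had 611 normalized reads per kb in shSRC1 and 924 in shNT, against 11159 in shSRC1 and 7997 in shNT for PSMB6. PSMB8 had 1362 and PSMB10 had 650 per kb in shSRC1, against 1280 and 628 in shNT. PSMB5 had 12231 and PSMB7 had 9705 per kb in shSRC1, against 9732 and 8146 in shNT. Among the alpha ring genes PSMA2 stood lowest, at 645 per kb in shSRC1 and 712 in shNT, with 34.6% of its exon bases under exons of other genes.

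**Figure D5:**
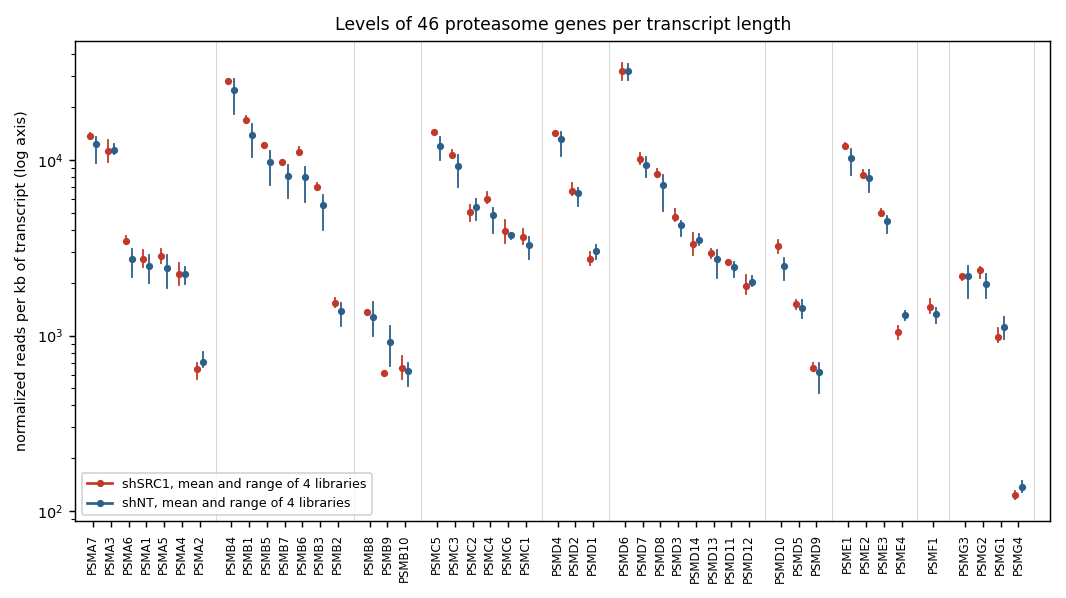
Normalized reads per kb of the longest annotated transcript for the 46 genes on a log axis, as the mean and range of the 4 shSRC1 libraries and, to its right, of the 4 shNT libraries, with vertical lines between roles. PSMD6 and PSMB4 stand highest, and the inducible subunits PSMB8, PSMB9 and PSMB10 lie at 611 to 1362 in shSRC1 and 628 to 1280 in shNT.

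Other genes of the pathway, which carry other names, are to be read against the 12% of all tested genes that rose and the 11.2% that fell. Of 13 further subunits, chaperones and associated factors, 1 rose and 1 fell. TXNL1, a thioredoxin-like protein bound to the regulatory particle, averaged 3306 ± 147 normalized reads in shSRC1 and 2210 ± 224 in shNT (log2 fold change 0.59, SE 0.09, limma adjusted p = 0.00034). UBLCP1, a phosphatase that acts on the proteasome, averaged 952 ± 148 in shSRC1 and 1225 ± 158 in shNT (log2 fold change -0.37, limma adjusted p = 0.0399), and did not pass without shNT replicate 3 (-0.29, limma adjusted p = 0.0875). SHFM1, a small lid subunit, passed in that setting, at -0.26 (limma adjusted p = 0.0148), against -0.22 with all libraries. POMP, which matures the core, had a log2 fold change of -0.07, and the ubiquitin receptor ADRM1 of 0.24.

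Of 13 transcription factors of proteasome genes and enzymes that activate them, none rose and 2 fell, which is near the 11.2% of all tested genes that fell. NFYB, a subunit of NF-Y, averaged 3990 ± 450 normalized reads in shSRC1 and 5275 ± 262 in shNT (log2 fold change -0.41, limma adjusted p = 0.00515). NFE2L2, the gene of NRF2, averaged 4447 ± 546 in shSRC1 and 5511 ± 357 in shNT (log2 fold change -0.32, limma adjusted p = 0.0272). NFE2L1 itself had a log2 fold change of 0.16 and did not pass (limma adjusted p = 0.19). Among 10 tested ubiquitin shuttles and parts of the VCP unfoldase 1 rose, UFD1L, by 0.26 on the log2 scale (limma adjusted p = 0.0495), though not without shNT replicate 3 (0.18, limma adjusted p = 0.06), and DDI1 was at 0 in every library.

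Of 6 genes that encode ubiquitin or its activating enzymes, 3 rose and 1 fell, where 12% and 11.2% of all tested genes did. UBB, a polyubiquitin gene, averaged 46308 ± 2292 normalized reads in shSRC1 and 27356 ± 5542 in shNT (0.78 on the log2 scale, SE 0.13, limma adjusted p = 0.000879). UBB rose by 0.62 without shNT replicate 3, its lowest library. RPS27A, which encodes ubiquitin fused to a ribosomal protein, rose by 0.33 on the log2 scale. All 12 ribosomal protein genes set beside them rose too, with a median of 0.53, or 0.39 without shNT replicate 3, and the part of these genes' shared movement in the proteasome values was not tested. Of 8 mitochondrially encoded genes none rose and 2 fell, MT-CO1 and MT-ND1, of which MT-ND1 did not pass without shNT replicate 3. UBA6, an E1 enzyme, fell by 0.45 on the log2 scale.

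The partners of the immunoproteasome in antigen display fell in 5 of 14 cases and rose in none, where 11.2% of all tested genes fell. Without shNT replicate 3, 6 of 14 fell, since IRF9 no longer passed (-0.29) and B2M (-0.29) and TAP1 (-0.20) did. NLRC5, a transactivator of MHC class I genes, averaged 135 ± 15 normalized reads in shSRC1 and 259 ± 34 in shNT (log2 fold change -0.93, SE 0.14, limma adjusted p = 0.000432). The peptidases ERAP1 and ERAP2, which trim peptides after the proteasome has cut them, fell by 0.31 and 1.06 on the log2 scale. STAT2 and IRF9, components of a transcription factor that interferon activates, fell by 0.28 and 0.40. The class I heavy chain genes HLA-B and HLA-C had log2 fold changes of 0.11 and 0.01 and IRF1 of 0.07, and none of these passed.

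Antisense genes named after a proteasome gene were 3, and 1 of them fell, where 11.2% of all tested genes did. PSMG3-AS1 had 1587, 1279, 1255 and 1342 normalized reads in shSRC1, against 2589, 2238, 2455 and 2350 in shNT. The groups did not overlap, and the log2 fold change was -0.82 (SE 0.09, limma adjusted p = 2.48e-05), while PSMG3 had one of 0.01. The sources do not describe the library kit as stranded, so reads of PSMG3-AS1 and PSMG3 cannot be told apart where the genes overlap. Exons of PSMG3-AS1 cover 3.06% of the exon bases of PSMG3. PSMD5-AS1 and PSMD6-AS2 did not pass.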

How the data were processed

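Polyadenylated RNA of 8 libraries was measured, 4 shSRC1 and 4 shNT, grouped by the hairpin in the labels. The authors deposited a signal per gene, the read count divided by a size factor for each library. The tools listed in the submitters' processing notes are TopHat2 2.0.12, HTSeq 0.6.1, DESeq and DESeq2, on GRCh37. How reads were assigned, and with which annotation, is not given in the sources used here. Whole reads were recovered from the deposited signal (100% of values whole within 0.001 reads), and 3 reads correspond to 2.67 to 5.25 normalized reads. Size-factor scaling sets libraries equal for the bulk of genes, so a group of genes that shifts in a library remains visible.

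The values were tested with limma 3.58.1 in R 4.3.3 (mean-variance trend, robust variances) on log2(value + 1), over 19559 genes with at least 10 in at least 4 libraries, two-sided, Benjamini-Hochberg threshold 0.05, without a replicate block. Fold changes on that scale understate those of low genes. The script was tested on simulated data. On recovered reads, edgeR 4.0.16 called 4637 genes and DESeq2 1.42.0 called 5304, against 4538 in limma. The proteasome genes and all lists were chosen with earlier results of these data known. Genes given in every library were those past the threshold, the catalytic subunits, the activators and the inhibitor, and of each further list up to 4 past the threshold by smallest adjusted p. PSMC5, PSMG1, PSMG2, PSMG3-AS1 and members named for a range or near the threshold were chosen after their values were seen. Some genes of the lists are counted but not reported here by name.

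GENCODE 29 (GRCh38) gave transcript length and GC content, found for 96.1% of tested genes. Exon overlap and gene order were computed from its gene and exon positions. The coordinates printed with the sequences are those of RefSeq. Alternatives were other scalings, filters and pseudocounts, a length and GC correction, a replicate block, edgeR, DESeq2 and each library left out.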

Additional observations from a re-analysis of the deposited data

Results flagged for a closer look

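In 92 groups of 4 libraries (46 proteasome genes in shSRC1 and in shNT), 6 held a library far from the other 3, by Dixon's criterion at the 95% level, which about 1 group in 20 meets by chance. In shNT, 3 of them were replicate 3 at the low end. PSMA7 had 9519 normalized reads there against 13035 to 13555 in the other shNT libraries, PSMC4 had 6082 against 8087 to 8436, and PSMD3 had 7967 against 9424 to 9700. In shSRC1, PSMA6 had 3809 in replicate 4 against 3441 to 3492 in the others, and PSMD2, a scaffold of the base, had 25592 in replicate 1 against 21672 to 22259. PSMG3 had 2891 in shSRC1 replicate 3 against 3057 to 3082.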

How the results depend on the processing

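Over 20 alternatives, PSMB9, PSMB6 and PSMD10 passed in all, 30 of the 46 genes passed in none, and 34 kept their sign in all. The count of 7 passing genes became 11 (9 higher, 2 lower) with upper-quartile scaling, where 24.8% of all tested genes passed. With a replicate block it was 13 (11 higher, 2 lower), where 6398 of the 19559 tested genes passed, 3290 higher and 3108 lower. With single libraries left out it ran from 3 to 14. It was 3 without shSRC1 replicate 2 (16.2% of all genes), 4 without shSRC1 replicate 4 (18.1%) and 14 without shNT replicate 2 (24.6%). The cause was not tested. The median of the 46 genes ranged from 0.04 to 0.18 with single libraries left out. Values near 0 changed sign. PSMB10 stood at -0.0042 with the length and GC correction, with or without a replicate block, and at -0.042 to 0.11 with single libraries left out (-0.0299 without shSRC1 replicate 1). PSMB8 stood at -0.0128 without shNT replicate 3 and shSRC1 replicate 2, and at -0.0077, without shNT replicate 3, to 0.21 with single libraries left out. PSME2 stood at -0.0003 with the length and GC correction, with or without the block, and at -0.0151 to 0.13 with single libraries left out.

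Replicate numbers are shared between the groups, but deviations of same-numbered libraries correlated at 0.24, -0.01, 0.13 and 0.14, which is over 0.1 in 3 of 4 pairs. Since not every pair was, the numbers were taken as shared numbers only. Replicates 1, 3 and 4 of shSRC1 correlated best with their own number, and replicate 2 did not, a hint from the data and not the design. With the block, 6398 genes passed in all, and PSMB1, PSMB3, PSMB7, PSMC5, PSME1 and PSMG2 passed besides the 7. The log2 ratio of PSMB9 to PSMB6 was then -1.07 and that of PSMB8 to PSMB5 -0.24. Both had an exact p of 0.125, the smallest for 4 pairs, which is above 0.05 before any adjustment. Without shNT replicate 3 and shSRC1 replicate 2 they were -1.08 and -0.22 (exact p 0.1, the smallest possible, adjusted 0.15), and with single libraries left out they ran from -1.10 to -1.04 and from -0.27 to -0.22. PSMB10 to PSMB7 ranged from -0.29 to -0.17 with single libraries left out, with an exact p of 0.0286 without shSRC1 replicate 1, and was -0.13 without both named libraries. The ratio of PSMB10 to PSMB7 was lower in shSRC1 than in shNT in each of the 4 same-numbered pairs. In counting depth, every proteasome gene had at least 470.1 normalized reads in every library.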

Other observations

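Among 28 pseudogenes of proteasome genes in the table, 3 passed the filter and none passed the test in limma (0 at an unadjusted p under 0.05). PSMC1P1 had 3095 normalized reads in shSRC1 replicate 2, against 790 to 1126 in the other 7 libraries. PSMC1P9 had 226 there against 3.71 to 33.0 in the others, while PSMC1 itself had 15978 in that library, within the range of the other shSRC1 libraries. These genes were chosen after their values were seen.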
